A study of Mus musculus with 6 samples.

Results

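The genes described here encode the proteins that make selenocysteine and place it into selenoproteins, together with the enzyme that recycles it and a receptor that brings selenium into cells. The set holds 10 genes (Sephs1, Sephs2, Pstk, Sepsecs, Secisbp2, Secisbp2l, Eefsec, Trnau1ap, Scly and Lrp8), chosen by name and found on the array through the RefSeq accession of each probe. They had 15 probes, and all 10 genes were among the 19021 genes tested. Pancreatic islet RNA was read on 6 arrays with 1 dye, 2 per group, from male mice aged 16 weeks on an ICR background. Islets called TrspFF carried the floxed Trsp gene in both copies (TrspFlox/Flox) and no Cre. Trsp-RIPKO islets carried the same floxed gene with RIP-Cre, in which a rat insulin promoter drives Cre, and Trsp-Ins1KO islets carried it with Ins1-Cre, in which Cre is made from the Ins1 gene. All groups therefore share the floxed allele, there was no group with Cre alone, and cells of the islet that do not make insulin are expected to keep Trsp. RIP-Cre is known to act in some neurons of the hypothalamus as well. The labels do not say whether a group's arrays hold RNA of separate mice or of pooled islets, so the p-values rest on the spread between arrays, which may be technical alone.

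Selenocysteine is made on its own transfer RNA, tRNA-Sec, which Trsp encodes. The tRNA is first charged with serine, the serine is phosphorylated by PSTK, and SEPSECS exchanges the phosphate for selenium delivered as selenophosphate by SEPHS2. The finished amino acid is then brought to the ribosome by the elongation factor EEFSEC and inserted at UGA codons of mRNAs that carry a hairpin called SECIS, which SECISBP2 binds. Beta cells lose this route when Trsp is deleted, and the comparisons ask what each Cre line did to the mRNA of the other parts of the route. No probe carries the name Trsp, so the deletion itself was not measured here and could not check the labels.

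Levels are log2 of the processed intensity minus the 75th percentile of the array, so a level of 0 means as bright as that percentile. The percentile itself ran from 203.0 to 247.2 over the other 4 arrays and was 121.9 and 110.7 for Trsp-Ins1KO, whose arrays were dimmer. Probes well above background made up 51.4% to 52.2% of all on the Trsp-Ins1KO arrays and 57.5% to 61.0% elsewhere, and 0 probes were saturated. The number of arrays limits the precision. TrspFF and Trsp-Ins1KO lay on slide 1 and Trsp-RIPKO alone on slide 2, so the Trsp-RIPKO genotype and its slide cannot be told apart. All 10 beta cell markers, among them Ins1, Ins2 and Pdx1, were well above background on every array, as the labelled tissue would have.

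The names in the authors' deposited table of log2 values did not match the scanner signals. Across 19486 probes, columns titled TrspFF matched Trsp-Ins1KO scanner signals (r = 1.0), those titled Trsp-Ins1KO matched TrspFF signals, and Trsp-RIPKO columns matched their own. Groups here are those of the scanner files. On Trsp-RIPKO arrays, whose names agree in both sources, the selenoprotein mRNAs Selenot (-1.04), Gpx1 (-0.74), Selenoh (-0.83) and Gpx4 (-0.79) were lower than on the arrays named TrspFF by the scanner files. The arrays so named Trsp-Ins1KO went the same way (-1.32, -1.15, -0.93 and -0.89), and the table's names would make the islets without Cre the lowest of the 3 groups by mean for these genes. Of these genes Gpx1 alone was called lower on the arrays named Trsp-Ins1KO than on Trsp-RIPKO arrays (-0.41, limma adjusted p = 0.0351). Some selenoproteins went the other way, such as Gpx2 (0.90 and 2.01). Of 22 tested, 2 were called higher and 13 lower in Trsp-RIPKO, and 6 higher and 10 lower in Trsp-Ins1KO. Neither source states which naming is right. Under the table's own names each difference between Trsp-Ins1KO and TrspFF has the opposite sign, and Eefsec, Lrp8, Pstk and Scly become lower in Trsp-RIPKO than in TrspFF.

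Of the 5 genes called higher in Trsp-Ins1KO islets, Sephs2 (0.59) and Scly (-0.13) differed in direction in Trsp-RIPKO, where neither was called. The promoter windows of all 5 are shown because these members share the Trsp-Ins1KO call. They are the 250 bases before the start site in RefSeq's GRCm38.p6, read 5′ to 3′ on the gene's strand: chr7:127274060-127274309 on the minus strand for Sephs2, chr7:131370896-131371145 on the plus strand for Pstk, chr6:88446540-88446789 on the minus strand for Eefsec, chr1:91298088-91298337 on the plus strand for Scly and chr4:107802635-107802884 on the plus strand for Lrp8, of whose 3 listed start sites this is the first. Capitals mark letters that matched a searched motif on either strand, and no matches overlapped in these windows.
Sephs2: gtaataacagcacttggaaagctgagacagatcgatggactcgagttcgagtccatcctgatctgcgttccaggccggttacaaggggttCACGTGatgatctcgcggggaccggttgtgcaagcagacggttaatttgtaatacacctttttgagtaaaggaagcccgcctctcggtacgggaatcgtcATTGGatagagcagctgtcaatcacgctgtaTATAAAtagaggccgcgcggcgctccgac
Pstk: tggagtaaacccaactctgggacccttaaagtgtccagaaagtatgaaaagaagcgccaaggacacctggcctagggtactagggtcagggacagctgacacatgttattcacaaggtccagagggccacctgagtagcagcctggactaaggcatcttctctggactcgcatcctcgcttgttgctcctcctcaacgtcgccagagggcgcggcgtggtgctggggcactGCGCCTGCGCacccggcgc
Eefsec: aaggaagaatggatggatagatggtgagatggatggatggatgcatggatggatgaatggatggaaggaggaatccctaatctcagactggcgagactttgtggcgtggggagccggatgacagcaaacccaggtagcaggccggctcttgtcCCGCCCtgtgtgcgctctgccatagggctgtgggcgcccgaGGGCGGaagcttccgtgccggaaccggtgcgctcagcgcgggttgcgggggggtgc
Scly: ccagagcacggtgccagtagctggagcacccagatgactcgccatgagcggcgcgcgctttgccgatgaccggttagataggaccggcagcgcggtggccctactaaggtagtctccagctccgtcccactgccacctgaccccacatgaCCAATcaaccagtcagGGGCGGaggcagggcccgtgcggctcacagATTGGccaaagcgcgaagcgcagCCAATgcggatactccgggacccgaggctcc
Lrp8: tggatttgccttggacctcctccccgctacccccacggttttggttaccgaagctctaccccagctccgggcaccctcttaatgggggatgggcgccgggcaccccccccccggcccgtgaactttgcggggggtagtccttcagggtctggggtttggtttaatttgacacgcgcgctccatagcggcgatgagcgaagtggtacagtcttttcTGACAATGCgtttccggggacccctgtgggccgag

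The motifs searched were the GC box with letters GGGCGG, the box named for its letters CCAAT, the TATA box with letters TATAAA, the E-box with letters CACGTG, the NRF1 site by its name, TGACNNNGC (core of the antioxidant response element, which NRF2 binds) and TGATGNAA (a composite of ATF4 and C/EBP). No searched motif was held by all 5 windows. Sephs2 held a CCAAT box, a TATA box and an E-box, Pstk the NRF1 site, Eefsec 2 GC boxes, Scly 1 GC box and 3 CCAAT boxes, and Lrp8 the antioxidant response element core. Of 32851 windows of this length, 32.74% held a GC box, 33.85% a CCAAT box, 12.37% a TATA box, 6.02% an E-box, 3.74% the NRF1 site, 10.16% the antioxidant core and 3.45% the ATF4 composite. Among 12 windows of 9 members, 6 members' windows held a GC box and 0 windows held the ATF4 composite. A match is only a run of letters in the window.

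In Trsp-Ins1KO islets 5 of the 10 genes rose relative to TrspFF (Sephs2, Scly, Lrp8, Eefsec and Pstk) and 0 fell, a direction that holds relative to the array's 75th percentile and turns to lower for all 5 when arrays are scaled to spike-in controls. Over all 19021 genes, 23.0% were called higher and 23.0% lower in this comparison (45.9% called in either direction). Relative to the 75th percentile, the rises ran from 1.35-fold for Pstk to 1.83-fold for Sephs2, whose probe was dim (processed intensity 18.8 to 37.2). Without the filter on dim probes, the median of all 32494 genes in this comparison was 0.28. With a mean over each gene's probes in place of its brightest probe, 5 were called higher and 2 lower (Sephs1 and Trnau1ap). The Sephs1 mean takes in a probe that was well above background only in TrspFF, so no fall of Sephs1 is read from it. In Trsp-RIPKO islets 0 of 10 genes were called by limma against TrspFF on their brightest probes (3 at an unadjusted p under 0.05). Of all genes, 36.4% were called there, 18.9% higher and 17.5% lower. With the mean over probes, Sephs1 and Trnau1ap were called lower there too, as were 3014 of all 19021 genes, and the same limit holds for Sephs1. Between the Cre lines, 4 genes were higher in Trsp-Ins1KO than in Trsp-RIPKO (Scly, Lrp8, Eefsec and Pstk) and 0 lower, where 38.7% of all genes were called, 19.3% higher and 19.4% lower. The median of the 10 differences was -0.08 in Trsp-RIPKO against TrspFF (all genes -0.0002), 0.28 in Trsp-Ins1KO against TrspFF (all genes -0.01) and 0.27 between the Cre lines (all genes -0.0064). The comparisons share arrays, so they are not independent of each other.

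**Figure D1:**
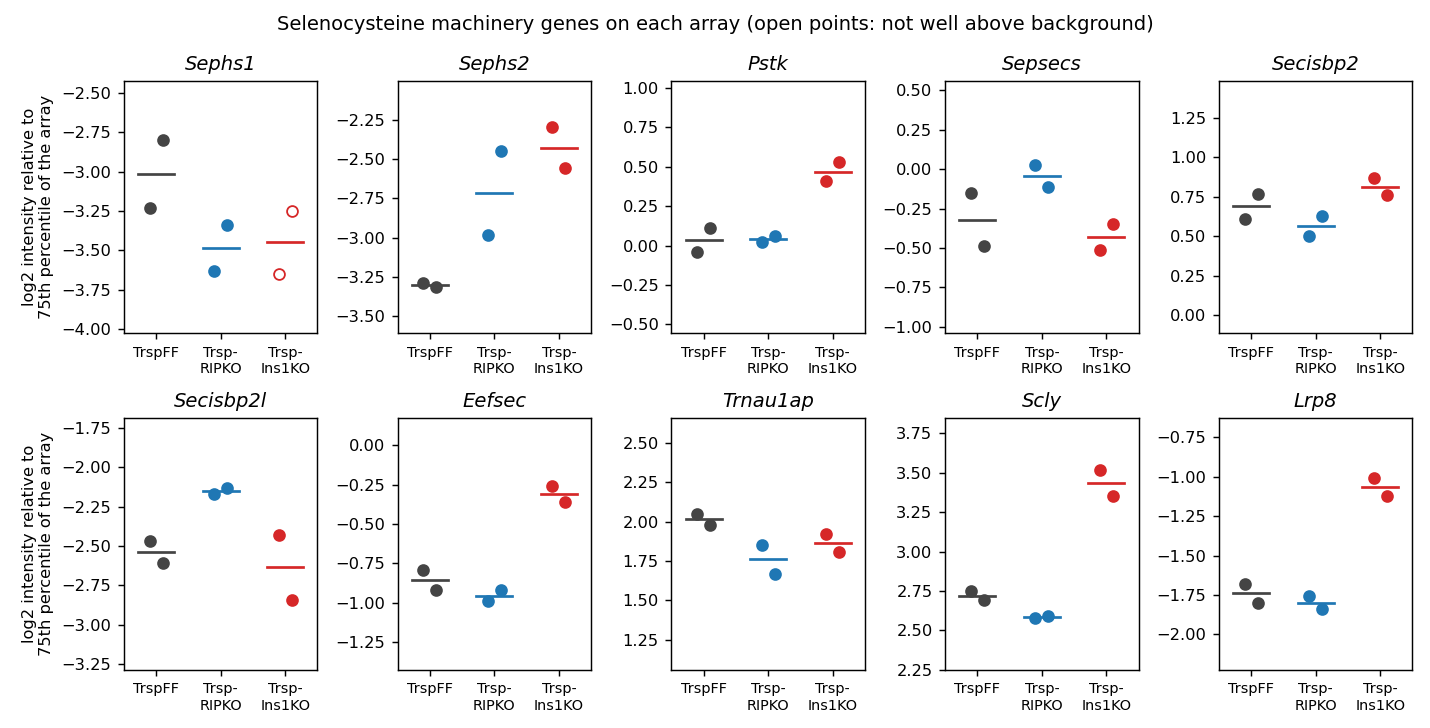
Level of each of the 10 genes on each of the 6 arrays, as log2 of processed intensity relative to the array's 75th percentile, with points for arrays (open where not well above background) and lines for group means. The Trsp-Ins1KO arrays lie above all others for Scly, Lrp8, Eefsec and Pstk on this scale, an order that spike-in scaling reverses for their group means.

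Selenophosphate is made by Sephs2, which is itself a selenoprotein, while its paralog Sephs1 has no selenocysteine. Sephs2 levels were -3.29 and -3.31 in TrspFF, -2.98 and -2.45 with RIP-Cre, and -2.30 and -2.56 with Ins1-Cre. Every knockout array lay above both TrspFF arrays, and the knockout groups overlapped each other. The rise in Trsp-Ins1KO was 0.87 ± 0.196 (log2, SE; limma adjusted p = 0.0199), and the difference in Trsp-RIPKO was 0.59 ± 0.196 (adjusted p = 0.0692). These calls hung on single arrays: the Trsp-Ins1KO call was lost without TrspFF 1 (adjusted p = 0.0841), TrspFF 2 (0.084) or Trsp-Ins1KO 1 (0.0696), while without Trsp-RIPKO 1 the Trsp-RIPKO difference became 0.86 with a limma adjusted p of 0.042. Sephs2 was well above background on all 6 arrays, at a processed intensity of 18.8 to 37.2.

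Sephs1 levels were -3.23 and -2.80 in TrspFF, -3.63 and -3.34 with RIP-Cre, and -3.65 and -3.25 with Ins1-Cre. Both knockout groups lay below both TrspFF arrays and overlapped each other. The difference was -0.47 ± 0.211 in Trsp-RIPKO (limma adjusted p = 0.137). The probe was not well above background on either Trsp-Ins1KO array, so there the signal has only a bound, 1.32-fold lower than in TrspFF. This difference was not called (limma adjusted p = 0.147). With normexp background correction it was 0.38 and called higher (limma adjusted p = 0.000543), so no fall in Trsp-Ins1KO is read from the bound. For such a bound, each dim array was taken at the dimmest signal that still stood well above background there, or at the gene's own signal if that was brighter.

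A second Sephs1 probe, A_52_P80965, read -3.91 and -3.83 in TrspFF, -4.59 and -4.35 with RIP-Cre, and -4.43 and -4.71 with Ins1-Cre. It was well above background only in TrspFF and entered the fit over all probes through that group alone, so no call is given for it. The signal was at least 1.27-fold lower in Trsp-RIPKO than in TrspFF, and the bound in Trsp-Ins1KO allows no fold.

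Pstk, the kinase that phosphorylates serine on tRNA-Sec, had levels of -0.04 and 0.11 in TrspFF, 0.02 and 0.06 with RIP-Cre, and 0.41 and 0.53 with Ins1-Cre. The TrspFF and Trsp-RIPKO arrays overlapped and both Trsp-Ins1KO arrays lay above them. The difference from TrspFF was 0.43 ± 0.0866 in Trsp-Ins1KO (limma adjusted p = 0.0140) and 0.0021 ± 0.0866 in Trsp-RIPKO (adjusted p = 0.987). The Trsp-Ins1KO call was lost without TrspFF 1 (adjusted p = 0.0863). The difference between the Cre lines, 0.43 ± 0.0866 (limma adjusted p = 0.0167), missed the threshold without Trsp-RIPKO 1 (0.0761), Trsp-RIPKO 2 (0.0625) or Trsp-Ins1KO 2 (0.0517).

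Sepsecs, the synthase that completes selenocysteine, read -0.15 and -0.49 in TrspFF, 0.03 and -0.11 with RIP-Cre, and -0.51 and -0.35 with Ins1-Cre. The Trsp-RIPKO arrays lay above all others and the TrspFF and Trsp-Ins1KO arrays overlapped. The difference from TrspFF was 0.28 ± 0.138 in Trsp-RIPKO (limma adjusted p = 0.166) and -0.11 ± 0.138 in Trsp-Ins1KO (0.537), and that between the Cre lines was -0.39 ± 0.138 (0.0778).

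Of the insertion factors, Eefsec, the elongation factor for selenocysteyl-tRNA, was the member called on its brightest probe. Dimmer probes of Trnau1ap were called lower in both knockouts, as given below. Eefsec levels were -0.79 and -0.92 in TrspFF, -0.99 and -0.92 with RIP-Cre, and -0.26 and -0.36 with Ins1-Cre. Both Trsp-Ins1KO arrays stood above the other 4. The difference from TrspFF was 0.54 ± 0.0827 in Trsp-Ins1KO (1.45-fold; limma adjusted p = 0.00692) and -0.10 ± 0.0827 in Trsp-RIPKO (0.376). Between the Cre lines it was 0.64 ± 0.0827 (limma adjusted p = 0.00531). Both Trsp-Ins1KO calls held without each array in turn (highest adjusted p over the 6 fits against TrspFF, 0.0488).

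Secisbp2, which binds the SECIS hairpin, read 0.61 and 0.77 in TrspFF, 0.50 and 0.63 with RIP-Cre, and 0.87 and 0.76 with Ins1-Cre. Both knockout groups overlapped TrspFF, and the differences from it were -0.12 ± 0.0948 (Trsp-RIPKO, limma adjusted p = 0.343) and 0.12 ± 0.0948 (Trsp-Ins1KO, 0.333). Its dimmer probe, A_51_P409724, read -2.75 to -2.07 over the 6 arrays and was called in no comparison. The Secisbp2 paralog Secisbp2l read -2.47 and -2.61 in TrspFF, -2.17 and -2.13 with RIP-Cre, and -2.43 and -2.84 with Ins1-Cre. The Trsp-RIPKO arrays were highest, by 0.39 ± 0.150 over TrspFF (limma adjusted p = 0.0973), and fitting these 2 groups alone put this past the threshold (0.0273). Trsp-Ins1KO stood 0.48 below Trsp-RIPKO (difference -0.48 ± 0.150, limma adjusted p = 0.0569), which passed without Trsp-Ins1KO 1 (-0.69, 0.0164).

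Trnau1ap, a protein that associates with tRNA-Sec, was read by 3 probes that disagreed in size. The brightest, A_55_P1965507, read 2.05 and 1.98 in TrspFF, 1.85 and 1.67 with RIP-Cre, and 1.92 and 1.81 with Ins1-Cre. Both knockouts lay below TrspFF on it, with differences of -0.25 ± 0.0931 (limma adjusted p = 0.0870) and -0.15 ± 0.0931 (0.244).

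Probe A_52_P193233 of Trnau1ap read -0.15 and -0.26 in TrspFF, -0.88 and -1.20 with RIP-Cre, and -0.94 and -1.12 with Ins1-Cre. Probe A_55_P2131607 read -0.56 and -0.70 without Cre, -1.09 and -1.48 with RIP-Cre, and -1.44 and -1.29 with Ins1-Cre. On both of these probes the knockout arrays lay apart from TrspFF and below it. In the fit over all probes, A_52_P193233 was called lower in Trsp-RIPKO (-0.84, limma adjusted p = 0.0138) and Trsp-Ins1KO (-0.82, 0.00855), and so was A_55_P2131607 (-0.65, 0.0301, and -0.73, 0.0162). The mean over the probes was also called lower in both knockouts (-0.58, limma adjusted p = 0.0217, and -0.57, 0.0161). All 3 probes match the same RefSeq transcript, and the isoform each probe reads was not determined.

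**Figure D2:**
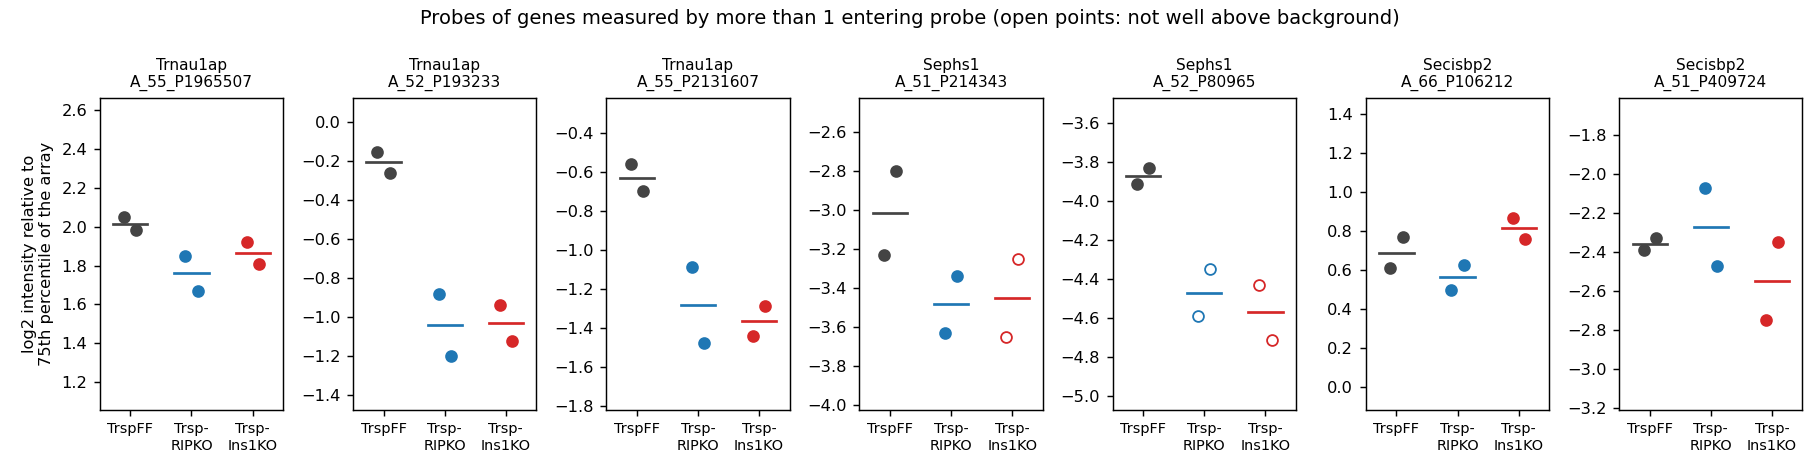
Levels of the members read by more than 1 tested probe, by probe and array (lines: group means; open points: not well above background), as log2 of processed intensity relative to the array's 75th percentile. Probes A_52_P193233 and A_55_P2131607 of Trnau1ap were lower on all 4 knockout arrays than on the TrspFF arrays, and levels of different probes are not comparable with each other.

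Scly, the lyase that releases selenium from selenocysteine, showed the largest difference between the Cre lines among the 10 genes. Its levels were 2.75 and 2.69 in TrspFF, 2.58 and 2.59 with RIP-Cre, and 3.52 and 3.35 with Ins1-Cre. The 3 groups did not overlap, and Trsp-Ins1KO was highest. The difference was 0.72 ± 0.0842 in Trsp-Ins1KO against TrspFF (1.65-fold; limma adjusted p = 0.00376), -0.13 ± 0.0842 in Trsp-RIPKO (0.256), and 0.85 ± 0.0842 between the Cre lines (0.00287).

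Lrp8, known as ApoER2, is a receptor that takes up selenoprotein P, the carrier of selenium in plasma. Its brighter probe read -1.68 and -1.80 in TrspFF, -1.76 and -1.84 with RIP-Cre, and -1.01 and -1.12 with Ins1-Cre. TrspFF and Trsp-RIPKO overlapped and Trsp-Ins1KO lay above them, by 0.68 ± 0.0832 over TrspFF (1.60-fold; limma adjusted p = 0.00418) and 0.74 ± 0.0832 over Trsp-RIPKO (0.0039). The Scly and Lrp8 calls against TrspFF held without each array in turn (highest limma adjusted p, 0.032 and 0.0333).

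The second Lrp8 probe, A_52_P279687, was the member probe that did not enter the tests. It read -5.25 and -4.70 in TrspFF, -3.95 and -3.86 with RIP-Cre, and -3.17 and -2.46 with Ins1-Cre, and was well above background on 1 of 2 arrays of each knockout and on 0 in TrspFF. Both knockouts read above TrspFF on it, but an array of each was itself not well above background, so no fold is given and there was no test.

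**Figure D3:**
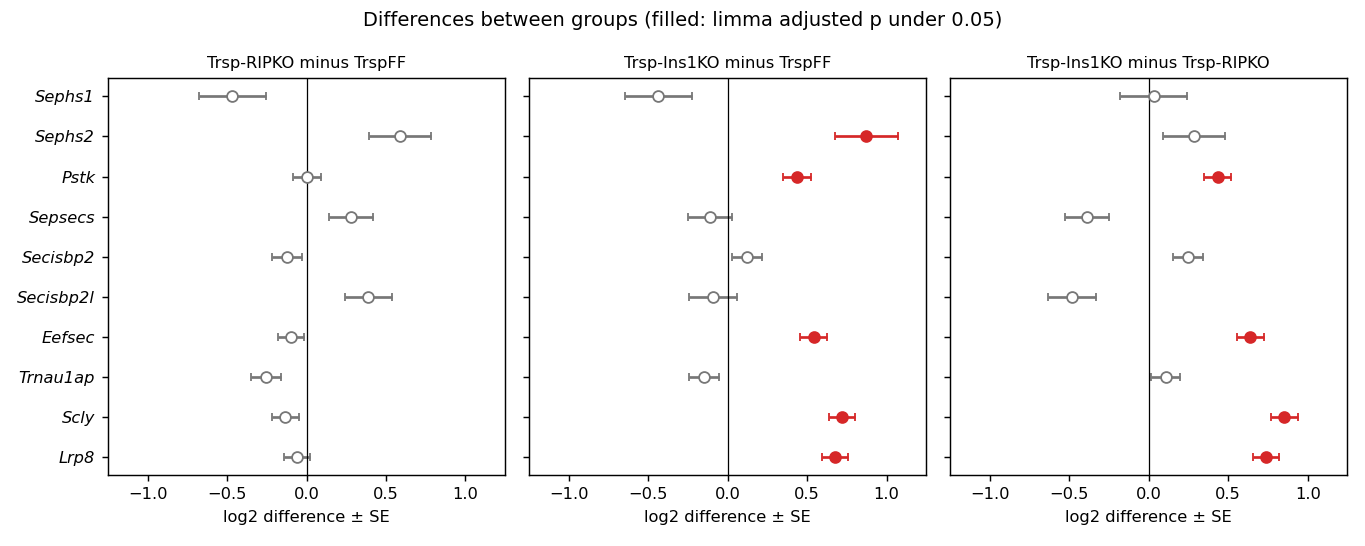
Log2 difference of each gene in the 3 comparisons (filled points: adjusted p under 0.05), with the standard error of the limma fit over all 6 arrays as bars. In Trsp-Ins1KO minus TrspFF, 5 genes passed an adjusted p of 0.05, all higher relative to the 75th percentile and all lower under spike-in scaling, and in Trsp-RIPKO minus TrspFF 0 passed. Over all genes 45.9% and 36.4% passed in these comparisons, and spike-in scaling called 18074 of 19021 genes lower in Trsp-Ins1KO.

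Groups did not overlap for 7 of 10 genes in each comparison (3 higher and 4 lower in Trsp-RIPKO against TrspFF, 5 higher and 2 lower in Trsp-Ins1KO against TrspFF and between the Cre lines). Over all genes the groups did not overlap for 77.4% in Trsp-RIPKO against TrspFF (38.1% higher, 39.2% lower), 76.9% in Trsp-Ins1KO against TrspFF (37.9% higher, 39.0% lower) and 71.8% between the Cre lines (35.4% higher, 36.4% lower). The members' share lay near the background in each.

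The scale sets the direction of the Trsp-Ins1KO differences. Before scaling, processed intensity of Scly was 1659 and 1407 in TrspFF, 1288 and 1220 with RIP-Cre, and 1404 and 1130 with Ins1-Cre. For Eefsec it was 142.8 and 115.5, 108.4 and 107.5, and 101.6 and 86.0 in that order. Unscaled log2 differences between Trsp-Ins1KO and TrspFF were -0.13 for Sephs2, -0.28 for Scly, -0.32 for Lrp8, -0.46 for Eefsec and -0.56 for Pstk, so that the mean unscaled signal of none of these 5 genes was higher in Trsp-Ins1KO. Of the genes not called, Secisbp2, Secisbp2l, Sepsecs and Trnau1ap lay further down in unscaled signal, from -0.88 for Secisbp2 to -1.15 for Trnau1ap, and Sephs1 has only its bound. The mean of 7 spike-in controls exceeded the 75th percentile by 2.36 and 2.58 (TrspFF), 2.61 and 2.72 (Trsp-RIPKO), and 3.79 and 3.86 (Trsp-Ins1KO). Scaled to these controls, the median of all genes moved to -1.37 in Trsp-Ins1KO against TrspFF, and 18074 of 19021 genes were called lower. All 10 members were among them, from -0.48 for Sephs2 to -1.50 for Trnau1ap among the 9 well above background in Trsp-Ins1KO. This scaling moves every gene of an array by the same amount, so it leaves the members' places relative to other genes as they were. The part of RNA amount or labelling in the dimmer Trsp-Ins1KO arrays was not tested.

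**Figure D4:**
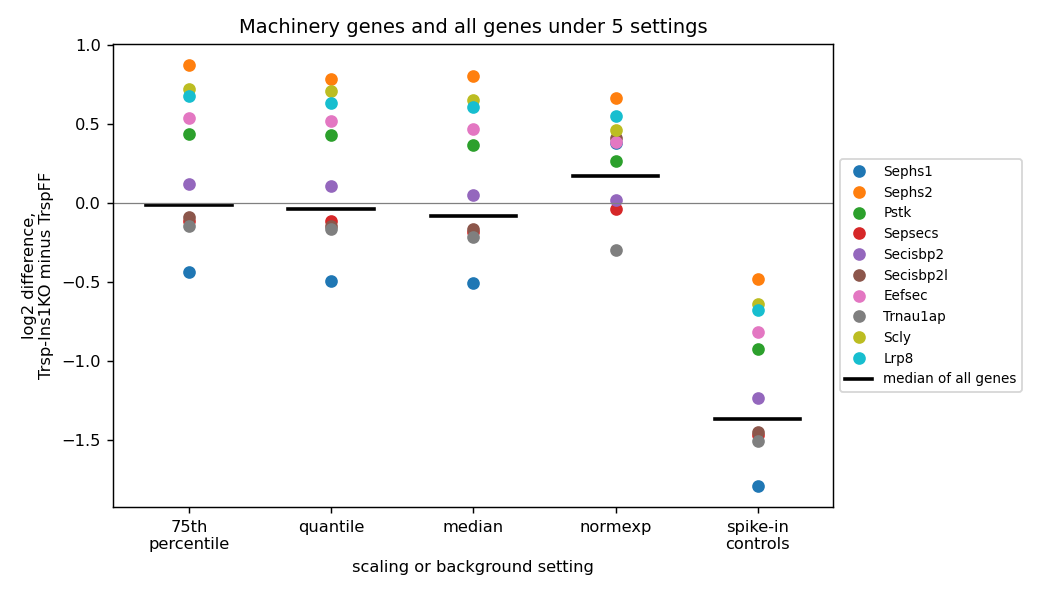
Log2 difference between Trsp-Ins1KO and TrspFF for each of the 10 genes (points) and the median of all 19021 genes (black bars) under 5 settings: 75th percentile, quantile, median, normexp background correction, and spike-in controls. Under spike-in scaling all 10 genes lie below 0 and the median of all genes is -1.37, and under normexp Sephs1 (0.38) and Secisbp2l (0.41) turn positive.

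Islets hold several cell types, and in such bulk RNA fewer cells of a type and less RNA per cell cannot be told apart. Marker lists moved with the same groups. Of 10 beta cell markers 6 were higher and 2 lower in Trsp-Ins1KO than in TrspFF, and 0 higher and 4 lower in Trsp-RIPKO. Their summed level, in multiples of the array's 75th percentile, was 3272 to 3668 in TrspFF, 3628 to 3888 in Trsp-RIPKO and 5907 to 6479 in Trsp-Ins1KO. Ins1, Ins2 and Iapp made up 91.5% to 96.7% of that sum, which adds probes whose levels are not comparable and so describes these 3 hormone probes. Among the rest, Pdx1 (0.65) and Mafa (0.68) were higher in Trsp-Ins1KO and Slc2a2 (-0.71) and Slc30a8 (-0.75) lower. Endothelial markers (9 genes) had 6 higher and 0 lower in Trsp-Ins1KO, with sums of 43.7 to 44.9 in TrspFF, 57.2 to 57.5 in Trsp-RIPKO and 80.7 to 85.5 in Trsp-Ins1KO. Of 9 fibroblast and stellate cell markers tested, 7 were higher and 0 lower in Trsp-RIPKO (sum 21.9, against 15.3 to 15.6 in TrspFF). In Trsp-Ins1KO 1 was higher and 7 lower (sum 6.77 to 6.78). Of 14 acinar markers tested, 12 were higher and 0 lower in Trsp-RIPKO, and 11 higher and 1 lower in Trsp-Ins1KO. Their sums were 14.04 to 14.5 in TrspFF, 19.8 to 21.6 in Trsp-RIPKO and 18.1 to 19.4 in Trsp-Ins1KO. The median difference of the acinar markers from TrspFF was 1.63 in Trsp-RIPKO and 1.51 in Trsp-Ins1KO. The endothelial, fibroblast and acinar sums also add probes whose levels are not comparable, so they follow the brightest probes. The acinar regulator Ptf1a and the fibroblast marker Pdgfra were not well above background on both arrays of any group. Of 8 markers of other islet hormone cells, 5 were lower and 0 higher in Trsp-Ins1KO, and 4 lower and 1 higher in Trsp-RIPKO. The part of these cells in the members' differences was not tested.

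Other genes of the route and around it were counted from fixed lists. Of 24 selenoproteins, the products of the route, 22 were tested, and against TrspFF 2 were higher and 13 lower in Trsp-RIPKO, and 6 higher and 10 lower in Trsp-Ins1KO, with Sephs2 counted among both lists. Selenop, the secreted selenium carrier that Lrp8 takes up, read 5.89 and 5.91 in TrspFF, 5.61 and 5.52 with RIP-Cre, and 4.99 and 4.92 with Ins1-Cre. The difference from TrspFF was -0.34 ± 0.0713 in Trsp-RIPKO (limma adjusted p = 0.0228) and -0.95 ± 0.0713 in Trsp-Ins1KO (0.00172), so in Trsp-Ins1KO the carrier's mRNA was lower and that of its receptor Lrp8 higher relative to the 75th percentile.

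Of 11 genes that charge or modify tRNA-Sec, 0 were higher and 4 lower in Trsp-RIPKO, and 1 was higher and 5 lower in Trsp-Ins1KO. Sars, which puts serine on the tRNA, read 4.78 and 4.84 in TrspFF, 4.85 and 4.81 with RIP-Cre, and 5.36 and 5.40 with Ins1-Cre, a rise of 0.57 ± 0.0672 in the last (limma adjusted p = 0.00379). Alkbh8, which takes part in methylating the wobble base of tRNA-Sec, fell in both knockouts, with differences of -0.56 ± 0.131 (limma adjusted p = 0.0293) and -0.92 ± 0.131 (0.00577). Serine charging by Sars and phosphorylation by Pstk are successive steps, and both mRNAs were higher in Trsp-Ins1KO relative to the 75th percentile. The mRNA of Sepsecs, which acts after Pstk, was not called there (-0.11, limma adjusted p = 0.537).

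Of 10 factors for transcription of Trsp by RNA polymerase III, 0 were higher and 3 lower in Trsp-RIPKO, and 4 higher and 3 lower in Trsp-Ins1KO. Snapc5, a subunit of the complex that binds such promoters, fell in both (-0.66 ± 0.104, limma adjusted p = 0.0121, and -1.22 ± 0.104, 0.00214), and Brf2, the initiation factor used at them, rose in Trsp-Ins1KO (0.65 ± 0.131, 0.0144). Among 6 other factors that bind SECIS elements or selenoprotein mRNAs, 1 was higher and 1 lower in each knockout. These were the same 2 genes: Rpl30, a ribosomal protein that binds SECIS, differed by -0.43 and -0.44, and Tial1 by 0.33 and 0.62.

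Of 13 assembly factors for selenoprotein messenger particles, 2 were higher and 5 lower in Trsp-RIPKO, and 0 higher and 4 lower in Trsp-Ins1KO. Nop58 (-0.49 and -1.10), Snu13 (-0.45 and -0.60) and Tgs1 (-0.30 and -0.57), which also serve small nucleolar RNAs or cap methylation, were called in both. Of 13 nonsense-mediated decay genes tested out of 15, 1 was higher and 3 lower in Trsp-RIPKO, and 3 higher and 4 lower in Trsp-Ins1KO. Upf3b (-0.46 and -0.72) was lower in both. Of 10 genes of selenium uptake and metabolism tested out of 14, 1 was higher and 2 lower in Trsp-RIPKO, and 3 higher and 3 lower in Trsp-Ins1KO. In Trsp-Ins1KO the higher ones were Gsr, glutathione reductase (0.68 ± 0.0704, limma adjusted p = 0.003), Cbs (0.52) and Txnrd1 (0.62). The lower ones were Selenop, given above, Selenbp1 (-0.36) and Inmt, a methyltransferase whose probe was well above background on neither Trsp-Ins1KO array and was at least 5.31-fold lower there (limma adjusted p = 0.000547). All of these calls are relative to the 75th percentile, with the backgrounds given above.

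Among members well above background on all arrays, Sephs2 and Scly had the largest range of group means (0.873 and 0.854). The genes with profiles most like that of Sephs2, by Euclidean distance of centred levels over the 6 arrays among 13369 other genes with a symbol, were Sema3g (0.172), Thsd4 (0.181) and Slc2a4 (0.193). They were dim like Sephs2, at levels of -3.94 to -2.88, -3.01 to -1.95 and -3.59 to -2.56 in that order. The part of low signal in this likeness was not tested. The genes most like Scly were Man2b1 (0.0529), Vwa5b2 (0.0599) and Esm1 (0.068). Man2b1, for example, read 1.44 and 1.41 in TrspFF, 1.31 and 1.33 with RIP-Cre, and 2.23 and 2.11 with Ins1-Cre.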

How the data were processed

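Per the labels, total RNA of islets was labelled with Cy3. Per the file headers, the authors read the arrays with Feature Extraction 10.7.3.1. Per those headers, the deposited values of a spot are its processed intensity (background-subtracted, not scaled between arrays), its unprocessed and local background intensity, and flags of 0 or 1 (unit other) for spots well above background, saturated or outlying. A deposited table of the authors' log2 values, with no scaling stated in the sources used, served as an alternative.

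From the processed intensity, log2 minus each array's 75th percentile was computed. Without the 1377 control spots and outlier spots, averaging per probe left 39426 probes, of which RefSeq accessions named 26053. Probes had to be well above background on both arrays of 1 or more groups, and the brightest such probe stood for its gene (23199 probes, 19021 genes). The 3 group means were fitted to all 6 arrays in limma 3.58.1 under R 4.3.3 (5.12 total degrees of freedom), two-sided, with Benjamini-Hochberg adjustment over all genes and a threshold of 0.05. The fit was tested on simulated data. Errors are the standard errors of the fit, n = 2 arrays per group. Files were read in Python 3.11.15 (pandas 2.3.3, numpy 2.4.6) and plotted with matplotlib 3.10.9.

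All 10 members are named with every probe, and genes of the other lists were open to naming where called in a comparison; for the likeness of profiles, the 3 nearest genes of the 2 members with the largest range were named. Members and lists were chosen with earlier results of these data known. Same-numbered samples of different groups had deviations that correlated at r = 0.0934, 0.0794 and 0.0645, so the numbers were not taken as pairs. Other marker lists were duct (6 tested; 3 higher and 1 lower in Trsp-RIPKO, 1 and 2 in Trsp-Ins1KO), macrophage (7; 2 and 0, 3 and 0), intestinal (6; 5 and 0, 3 and 0), Schwann cell and neuron (8; 2 and 0, 2 and 4) and erythrocyte markers (2; 0 and 1, 0 and 1). Alternatives were other background correction, scaling, probe filters, probe summaries and fits, and each array left out.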

Additional observations from a re-analysis of the deposited data

Results flagged for a closer look

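The change from TrspFF differed between the Cre lines for 4 of 10 genes, as tested by the limma contrast of Trsp-Ins1KO against Trsp-RIPKO. Over all 19021 genes, 38.7% were called in this contrast, 19.3% higher and 19.4% lower, so differing between the lines is not particular to the members. The change in Trsp-Ins1KO exceeded that in Trsp-RIPKO by 0.64 (log2) for Eefsec, 0.74 for Lrp8, 0.43 for Pstk and 0.85 for Scly. Trsp-RIPKO arrays lay on another slide, so slide and group cannot be told apart in this contrast. Spike-in scaling moves all genes alike, to a median of -1.17 in this contrast, and the 4 differences then lie below 0 and above that median.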

How the results depend on the processing

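Eefsec, Scly and Lrp8 kept their calls in Trsp-Ins1KO against TrspFF under every alternative run other than spike-in scaling and the table's own names, both of which turned their sign. For all genes, median scaling gave 2013 higher and 7264 lower calls in Trsp-RIPKO against TrspFF (3592 and 3329 in the main fit) and 5702 and 2351 between the Cre lines (3669 and 3696). Normexp gave 9332 and 4693 in Trsp-Ins1KO against TrspFF (4371 and 4366) and 7991 and 3914 between the Cre lines. Spike-in scaling, chosen after seeing the data like the other probes, gave 1827 and 3978 in Trsp-RIPKO, 136 and 18074 in Trsp-Ins1KO, and 84 and 18256 between the lines. The causes were not tested. Dim genes (Sephs1, Sephs2) limit what signal over background can show.

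In Trsp-RIPKO against TrspFF, where the main fit called 0 members, normexp called 3, all higher (5562 higher and 4146 lower over all genes). Median scaling called 5, the table's own names 4 and the mean over probes 2, all lower. The last were Trnau1ap and Sephs1, whose mean takes in a probe well above background only in TrspFF. Over all genes the table's names gave 3698 higher and 3658 lower, and the mean over probes 3452 and 3014. Quantile, spike-in scaling and the trended robust fit called 1 lower each, and probes well above background on all arrays and the 2 groups alone 1 higher each. Over all genes, quantile gave 3051 higher and 3376 lower and the trended robust fit 4065 and 4435. Probes well above background on all arrays gave 3444 and 3858 of 16104, and the 2 groups alone 4068 and 3624. With the replicate block, though the numbers do not pair the samples, 1 member was called in Trsp-RIPKO, 6 in Trsp-Ins1KO and 4 between the lines, the change being Sephs1, lower in both knockouts. Over all genes the block gave 3539 higher and 3059 lower in Trsp-RIPKO, 4268 and 4221 in Trsp-Ins1KO, and 3529 and 3521 between the lines. Leaving out an array leaves 1 in its group, so calls are not counted over those fits. In Trsp-Ins1KO against TrspFF their lowest differences were 0.74 for Sephs2, 0.36 for Pstk, 0.48 for Eefsec, 0.63 for Scly and 0.62 for Lrp8. The Sephs2 and Pstk calls that were lost are given above. In Trsp-Ins1KO normexp called 8 (7 higher, 1 lower), the mean over probes 7 (5 higher, 2 lower) and spike-in scaling 10, all lower. The mean over probes gave 4205 higher and 4273 lower over all genes there, and its Sephs1 call has the same limit as in Trsp-RIPKO. Between the lines normexp called 8 (7 higher, 1 lower), spike-in scaling 9, all lower, and the table's own names 0 (3323 higher and 3593 lower over all genes).

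Directions reversed as follows. In Trsp-RIPKO, Pstk had -0.24 with median scaling, -0.19 with spike-in scaling, -0.43 under the table's names and -0.072 to 0.076 without single arrays; Sephs2 had -0.28 under the table's names and the other Secisbp2 probe 0.087. In Trsp-Ins1KO, normexp gave Sephs1 0.38 and Secisbp2l 0.41. Spike-in scaling gave Sephs2 -0.48, Pstk -0.92, Secisbp2 -1.23, Eefsec -0.82, Scly -0.64 and Lrp8 -0.68. The table's names gave Sephs1 0.44, Sephs2 -0.87, Pstk -0.43, Sepsecs 0.11, Secisbp2 -0.12, Secisbp2l 0.092, Eefsec -0.54, Trnau1ap 0.15, Scly -0.72 and Lrp8 -0.68. Without single arrays Sepsecs ranged from -0.28 to 0.055 and Secisbp2l from -0.30 to 0.11, and Secisbp2 was -0.035 as a mean over probes and -0.19 on its other probe. Between the lines, spike-in scaling gave Sephs1 -1.13, Sephs2 -0.88, Pstk -0.73, Secisbp2 -0.92, Eefsec -0.52, Trnau1ap -1.06, Scly -0.31 and Lrp8 -0.43. Normexp gave Secisbp2l 0.13 and Trnau1ap -0.17, and the table's names Sephs2 -0.59 and Pstk -0.0025. Means over probes gave Sephs1 -0.034 and Secisbp2 -0.017. Other probes gave Sephs1 -0.10 (well above background in neither line), Secisbp2 -0.28 and Trnau1ap -0.079, and Sephs1 ranged from -0.17 to 0.23 without single arrays.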
